A study of Arabidopsis thaliana with 9 samples.

Results

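The ATH1 array carries a run of probe sets that was designed on the mitochondrial genome of Arabidopsis thaliana. Its members were taken by identifier, from 244901 to 244931 and from 244943 to 244959, with no filter on signal. This gave 48 of the 22746 probe sets that are not Affymetrix controls. The 11 identifiers between these ranges were not taken, and no member was named with a plastid gene. The annotation used here gave a mitochondrial gene for 13 members, 1 of them with both rps3 and rpl16, and a locus of chromosome 2 for 5 members. It named no gene for the other 30, which are given by their probe set identifiers.

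Line 348, line 409 and the control line C2S1 were compared, each on 3 arrays. Both mutant lines carry a T-DNA knock out mutation in a gene that the labels do not name. C2S1 is the wild-type control in the sample titles, although its genetic variation label also speaks of a knock out mutation. The series title speaks of epigenetic mutants. In every group the RNA came from whole plants at growth stage 1.04, aged 17 days and kept at 21 C under a day of 16 h light and 8 h dark, on plates of 25 seeds. Separate cultures for the arrays of a line are not stated, so a p-value here reflects only array-to-array spread, part of which may be technical.

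Plant mitochondria keep a small genome of their own. It encodes core subunits of the respiratory complexes, proteins of the cytochrome c maturation pathway, some ribosomal proteins and an intron maturase, while most mitochondrial proteins come from nuclear genes. A long stretch of mitochondrial DNA is also inserted near the centromere of chromosome 2 in Arabidopsis, so a probe set of this block can match both the organelle and a nuclear copy. Probe sets ending in _s_at match more than 1 transcript by design, and 14 members have this suffix. Poly(A) tails mark RNA for decay in plant mitochondria, and one-cycle labelling starts from such tails, so the signals are not a measure of all mitochondrial RNA.

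The signals are the authors' MAS5 values in intensity units on a linear scale, where the 2% trimmed mean is 100 on each array. Pearson's r between arrays within a line was 0.963 to 0.985 over the 14199 probe sets above the signal filter described next, and no pair of arrays shared identical values. The leaf markers LHCB4.1, PSAE-1 and RCA had mean signals of 4888, 5109 and 5655 and the root marker PYK10 had 3182. Shoot was thus read from 3 of 5 listed markers, and root from only 1 of 4. Seed and flower markers were not analysed here. The number of arrays limits the precision. In whole plants, fewer cells of a type and less RNA per cell cannot be told apart.

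Most of the block was dim. The median member had a mean signal of 10.4 over the 9 arrays, against 38.6 for the median of all probe sets. Of the 48 members, 20 lay above the array's 40th percentile of signal on at least 3 arrays, or 41.7%, against 62.4% of all probe sets. This percentile was 20.6 to 23.9 units on the 9 arrays. The other 28 members lay below it on every array, with mean signals of 0.93 to 13.5, and 15 members stayed under 10 units throughout. Of the members with a mitochondrial gene, 10 of 13 passed this filter, and of the chromosome 2 loci 4 of 5, while 6 of the 30 unnamed members did. Levels of different probe sets cannot be ranked as transcript amounts, because their probes differ in binding.

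**Figure D1:**
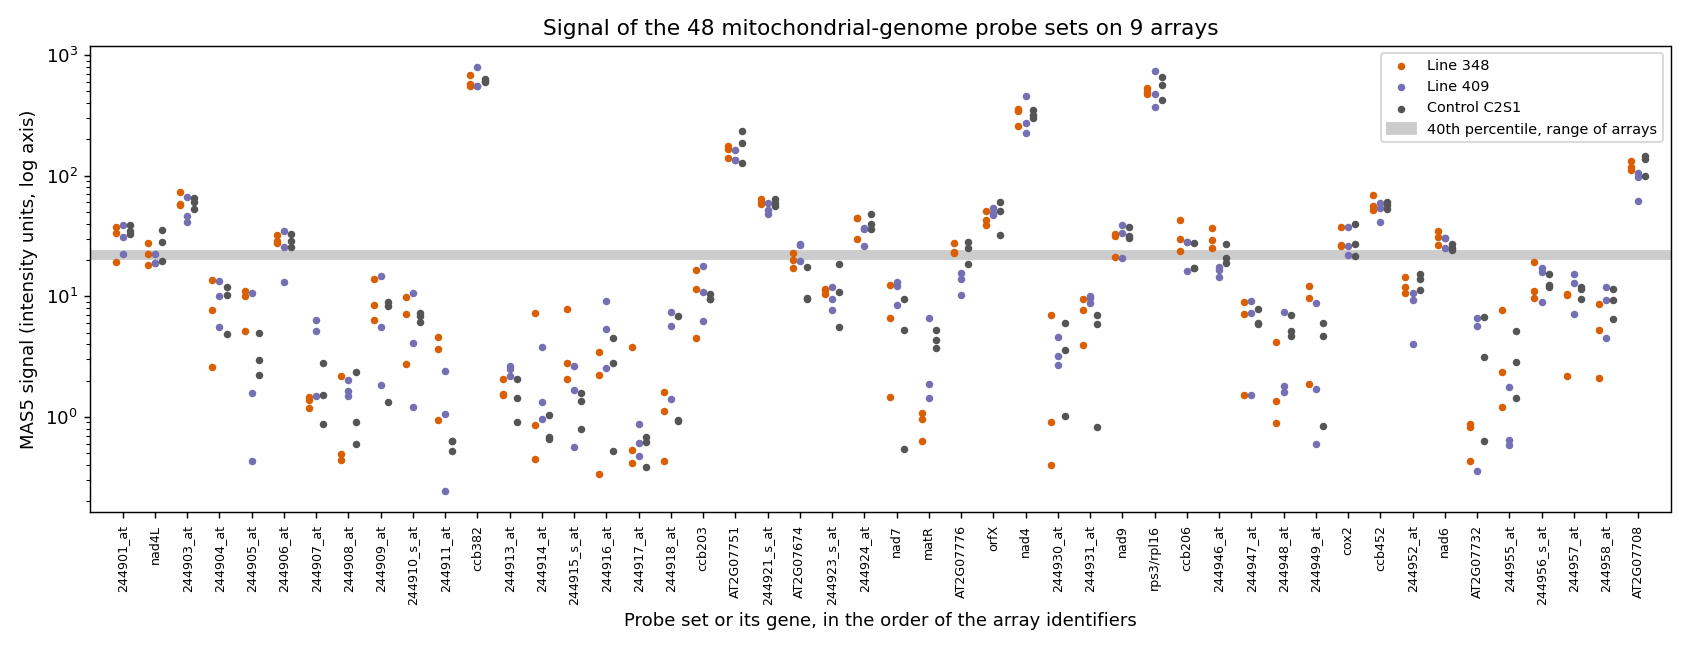
MAS5 signal of the 48 members (log axis, intensity units) on each array, in the order of their identifiers, for line 348, line 409 and control C2S1, with the range of the arrays' 40th percentile as a grey band. ccb382, rps3/rpl16, nad4, AT2G07751 and AT2G07708 stand above 100 on average, and 28 members lie below the band on every array.

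No member passed the test between lines in limma, at an adjusted p under 0.05 over all probe sets. In line 348 against C2S1, 0 of 48 members were called, beside 0.00879% of all probe sets, and 2 members had an unadjusted p under 0.05, beside 5.07% of all. In line 409 against C2S1, 0 were called, beside 0.0352% of all, and 3 had an unadjusted p under 0.05, beside 10.1%. In line 409 against line 348, 0 were called, beside 0.0044%, and 3 had an unadjusted p under 0.05, beside 7.1%. The lowest adjusted p of a member was 0.943, 0.344 and 0.599 in these 3 comparisons. The first and second comparison use the same C2S1 arrays.

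The members were spread on both sides of 0. Their median log2 change was -0.02 in line 348 against C2S1, with 23 members above 0 and 25 below, beside 50.3% of all probe sets above 0 and a median of 0.0015. In line 409 against C2S1 the median of the members was also -0.02, again with 23 above 0 and 25 below, beside 53.2% above 0 and a median of 0.02 for all probe sets. Between line 409 and line 348 the median was -0.07, with 23 above and 25 below, beside 52.7% above 0 and a median of 0.02 for all. The 20 members above the filter split otherwise. In line 348 against C2S1, 10 were above 0 and 10 below, in line 409 against C2S1 5 were above and 15 below (median -0.15), and between line 409 and line 348 6 were above and 14 below (median -0.14). Of all probe sets above the filter, 47.95%, 47.8% and 49.3% were above 0 in these comparisons. Members can pass the filter through some of the lines only, also with no array of line 409, so this split is a description. A log2 change here is of signal plus a pseudocount of 4.98, which understates the change of dim probe sets.

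nad4, nad4L, nad6, nad7 and nad9 encode subunits of respiratory complex I, the NADH dehydrogenase that passes electrons to ubiquinone. nad4 (244929_at) had 346, 358 and 257 signal units in line 348 and 274, 228 and 458 in line 409, against 321, 351 and 299 in C2S1. The 3 lines overlapped, and line 409 held both the highest and the lowest array. The log2 change was -0.02 (95% confidence interval -0.49 to 0.44) in line 348 and -0.08 (-0.54 to 0.39) in line 409, so a 2-fold change lay outside both intervals.

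nad4L (244902_at) had 27.6, 22.6 and 18.1 in line 348 and 19.0, 19.0 and 22.4 in line 409, against 28.4, 35.3 and 19.6 in C2S1. C2S1 held the brightest array and the lines overlapped, with log2 changes of -0.23 in line 348 and -0.36 in line 409 (SE 0.247 each). It lay above the 40th percentile on 4 arrays. nad9 (244943_at) averaged 28.5 ± 6.26 in line 348, 31.1 ± 9.38 in line 409 and 33.1 ± 3.79 in C2S1 (SD, n = 3 arrays each), and nad6 (244953_s_at) averaged 30.8 ± 4.28, 28.6 ± 3.19 and 25.5 ± 1.59 in the same order of lines. Neither was called.

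nad7 (244925_at) lay below the filter on all 9 arrays. Its signals were 12.3, 1.45 and 6.64 in line 348 and 12.1, 8.52 and 13.1 in line 409, against 9.51, 0.54 and 5.20 in C2S1. The lines overlapped, and the log2 change in line 409 was 0.79 with SE 0.411 and limma adjusted p = 0.557. Over the 5 complex I members the median log2 change was -0.02 in line 348, -0.08 in line 409 and -0.05 between line 409 and line 348.

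The ccb genes act in cytochrome c maturation, the pathway that attaches heme to cytochrome c, and are also known as ccm genes. ccb382 (244912_at) had the smallest SE of a log2 change (0.138) among the 5 members with a mean above 100. It had 558, 685 and 579 in line 348 and 555, 553 and 795 in line 409, against 616, 629 and 595 in C2S1. Only replicate 3 of line 409 stood clearly above the other line 409 arrays. The log2 change was -0.02 (95% confidence interval -0.32 to 0.28) in line 348, 0.03 (-0.27 to 0.33) in line 409 and 0.05 (-0.25 to 0.35) between line 409 and line 348.

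ccb452 (244951_s_at) averaged 59.5 ± 9.17 in line 348, 51.6 ± 9.22 in line 409 and 57.0 ± 3.36 in C2S1 (SD, n = 3 arrays each). ccb206 (244945_at) had 42.9, 29.9 and 23.9 in line 348 and 16.2, 28.1 and 28.2 in line 409, against 17.1, 27.6 and 17.1 in C2S1. Of its line 348 arrays, 2 lay above every C2S1 array and 1 within the C2S1 range, with a log2 change of 0.53, SE 0.282 and limma adjusted p = 0.971. ccb203 (244919_at) was below the filter on every array, with means of 10.8 ± 6.00 in line 348, 11.7 ± 5.87 in line 409 and 9.76 ± 0.53 in C2S1.

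cox2 encodes a core subunit of cytochrome c oxidase, complex IV of the respiratory chain. Its probe set 244950_at had 37.8, 26.3 and 26.8 in line 348 and 37.6, 22.2 and 25.9 in line 409, against 26.9, 39.6 and 21.5 in C2S1. Each line held 1 array clearly above its others, and the log2 changes were 0.06 in line 348 and -0.02 in line 409 (SE 0.262 each).

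Probe set 244944_s_at reads rps3 and rpl16, neighbouring genes of ribosomal proteins of the small and the large subunit, and cannot separate them. It had 480, 536 and 494 in line 348 and 477, 372 and 736 in line 409, against 565, 660 and 429 in C2S1. As for nad4 and ccb382, replicate 3 of line 409 was the highest and replicate 2 of line 409 the lowest of all 9 arrays. The log2 change was -0.11 (95% confidence interval -0.58 to 0.36) in line 348 and -0.10 (-0.56 to 0.37) in line 409.

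matR encodes an intron maturase that helps to splice mitochondrial transcripts, and orfX a protein of the twin-arginine translocation family. The matR probe set 244926_s_at was below the filter on every array, with 0.96, 0.63 and 1.08 in line 348 and 1.42, 1.87 and 6.58 in line 409, against 4.31, 5.25 and 3.69 in C2S1. All line 348 arrays lay below all arrays of the other lines. The log2 change in line 348 was -0.68 with SE 0.254, a limma unadjusted p of 0.0214 and an adjusted p = 0.943. The size of this change turned on the pseudocount: without one it was -2.33 (limma adjusted p = 0.895), and with one of 21.5 it was -0.21 (adjusted p = 0.977). Over all alternatives tried, the limma adjusted p of matR in line 348 ranged from 0.487 to 1.00.

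orfX (244928_s_at) had 43.2, 50.9 and 39.1 in line 348 and 47.2, 49.0 and 53.5 in line 409, against 60.6, 50.8 and 32.1 in C2S1. The C2S1 arrays alone spanned a 1.89-fold range, which covered the arrays of both mutant lines.

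**Figure D2:**
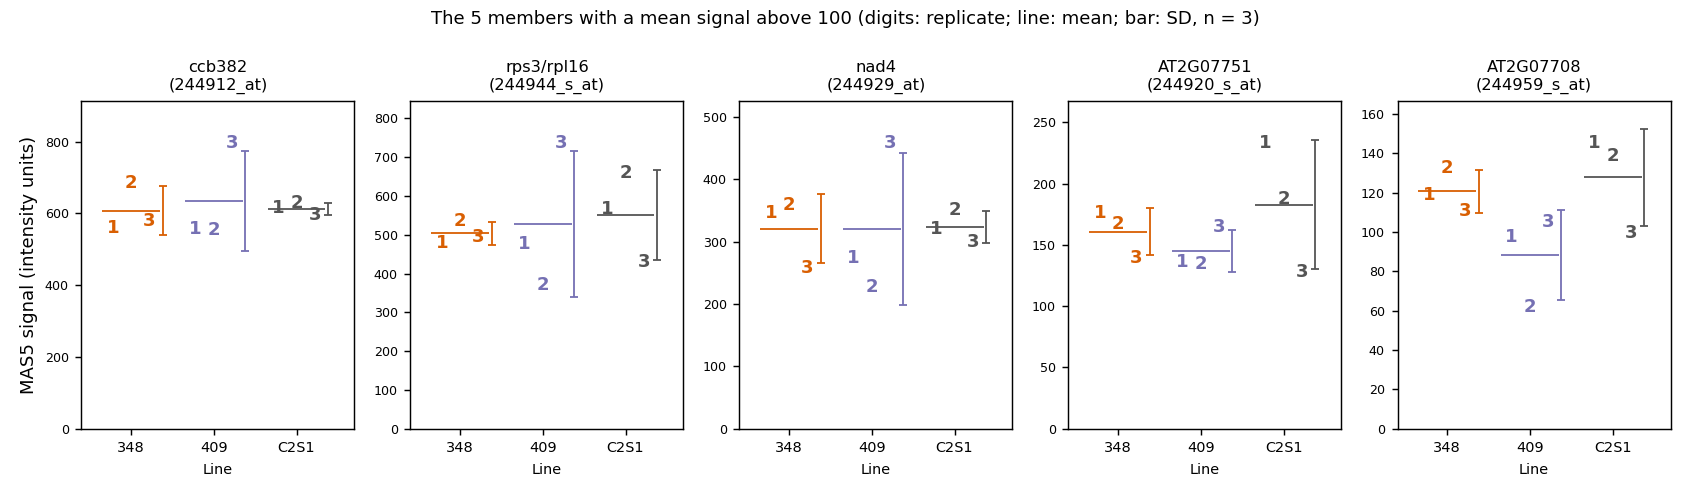
MAS5 signal (intensity units, each axis from 0) of the 5 members with a mean above 100, by line. Digits mark the replicate, horizontal lines the mean and bars the SD (n = 3 arrays). For ccb382, rps3/rpl16 and nad4 the highest and the lowest array are replicates 3 and 2 of line 409.

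The annotation gives 5 members to chromosome 2. In line 409 against C2S1, the 3 members with an unadjusted p under 0.05 in limma were all of this kind, as were 2 of the 3 between line 409 and line 348. The 5 loci are annotated as protein-coding, and no role is given to them here. All but AT2G07776 have an _s_at probe set, which can match more than 1 transcript. Of the mitochondrial-gene probe sets outside the block that also name a chromosome 2 locus, only 257339_s_at had such a p in line 409 against C2S1. AT2G07674 (244922_s_at) had 17.3, 23.0 and 20.1 in line 348 and 27.3, 19.8 and 26.8 in line 409, against 17.6, 9.49 and 9.77 in C2S1. All line 409 arrays lay above all C2S1 arrays, while line 348 overlapped C2S1. The log2 change was 0.80 (SE 0.258) in line 409 with limma unadjusted p = 0.00961 and adjusted p = 0.344, and 0.57 in line 348 with unadjusted p = 0.0495 and adjusted p = 0.971. It passed the filter on 3 arrays, all of mutant lines, and its difference between line 409 and line 348 was 0.23 with SE 0.258.

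AT2G07776 (244927_at) had 22.7, 23.4 and 27.6 in line 348 and 13.9, 15.7 and 10.2 in line 409, against 18.4, 28.0 and 25.2 in C2S1. All line 409 arrays lay below all arrays of line 348 and of C2S1. This member passed the filter on 5 arrays, none of line 409. The log2 change in line 409 was -0.66 against C2S1 (SE 0.238, limma unadjusted p = 0.0179, adjusted p = 0.400) and -0.70 against line 348 (unadjusted p = 0.0123, adjusted p = 0.630), and in line 348 against C2S1 it was 0.05.

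AT2G07708 (244959_s_at) had 119, 132 and 111 in line 348 and 97.6, 62.1 and 105 in line 409, against 145, 138 and 99.6 in C2S1. Line 409 lay below line 348 on all arrays and overlapped C2S1. The log2 change in line 409 against C2S1 was -0.52 (SE 0.193, limma unadjusted p = 0.0193, adjusted p = 0.401) and moved to -0.30 without line 409 replicate 2. Against line 348 it was -0.46 with limma adjusted p = 0.687.

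AT2G07751 (244920_s_at) had 176, 167 and 140 in line 348 and 136, 134 and 165 in line 409, against 233, 188 and 128 in C2S1. C2S1 held both the highest and the lowest array, and the log2 changes were -0.15 in line 348 and -0.29 in line 409 (SE 0.185 each). Without C2S1 replicate 1 they were 0.04 and -0.10, and without C2S1 replicate 3 they were -0.37 and -0.52, with limma adjusted p = 0.843 and 0.284 in the last fit. AT2G07732 (244954_s_at) was below the filter on every array, at 0.36 to 6.70 units. Of the 5 loci, 2 had log2 changes above 0 and 3 below in each of the 3 comparisons, so they showed no common direction.

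Among the 30 members without a gene name, 244946_at had the lowest p of any member between the mutant lines. It had 29.2, 36.9 and 25.3 in line 348 and 14.5, 16.5 and 17.5 in line 409, against 27.2, 21.0 and 18.8 in C2S1. All line 409 arrays lay below those of both other lines. This member passed the filter on 4 arrays, none of line 409. The log2 change was -0.73 between line 409 and line 348 (SE 0.228, limma unadjusted p = 0.00785, adjusted p = 0.599), with -0.36 in line 409 and 0.37 in line 348 against C2S1. The other 5 unnamed members above the filter, 244901_at, 244903_at, 244906_at, 244921_s_at and 244924_at, had mean signals of 27.7 to 58.2 and log2 changes of -0.30 to -0.16 in line 409 against C2S1 and of -0.25 to 0.06 in line 348, none with a limma adjusted p under 0.672.

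Groups that did not overlap were found for 5 of 48 members in line 348 against C2S1, or 10.4%, beside 12.1% of all probe sets (6.06% higher and 6.01% lower in line 348). All 5 were below the signal filter: 244905_at, 244911_at and 244915_s_at were higher in line 348, and matR and 244948_at lower. For line 409 against C2S1 the count was 6, or 12.5% beside 15.9% of all (8.55% higher and 7.36% lower in line 409), with AT2G07674, 244913_at and 244931_at higher and AT2G07776, 244946_at and 244952_at lower. For line 409 against line 348 it was 6, or 12.5% beside 10.9% (6.18% higher and 4.73% lower in line 409), with 244907_at, 244913_at and matR higher and AT2G07776, 244946_at and AT2G07708 lower. These shares lay near those of all probe sets.

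The 28 members below the filter, 4 of them named, had log2 changes of -0.68 to 0.70 in line 348 against C2S1, of -0.54 to 0.79 in line 409 against C2S1 and of -0.72 to 0.65 between line 409 and line 348. The highest single signal among them was 19.4 units. 244905_at had 5.16, 10.1 and 11.0 in line 348 and 0.43, 1.57 and 10.6 in line 409, against 4.96, 2.24 and 2.94 in C2S1, and its log2 change of 0.70 in line 348 was the highest of the members in that comparison. 244931_at had 10.1, 9.58 and 8.80 in line 409, against 7.00, 5.90 and 0.83 in C2S1. The groups did not overlap for either, and limma gave adjusted p = 0.971 for 244905_at in line 348 and 0.513 for 244931_at in line 409. A further pair of dim members was among the 8 with the lowest p between line 409 and line 348. The log2 difference was 0.65 for 244918_at and 0.59 for 244916_at, with overlapping groups and limma adjusted p = 0.719 and 0.721.

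**Figure D3:**
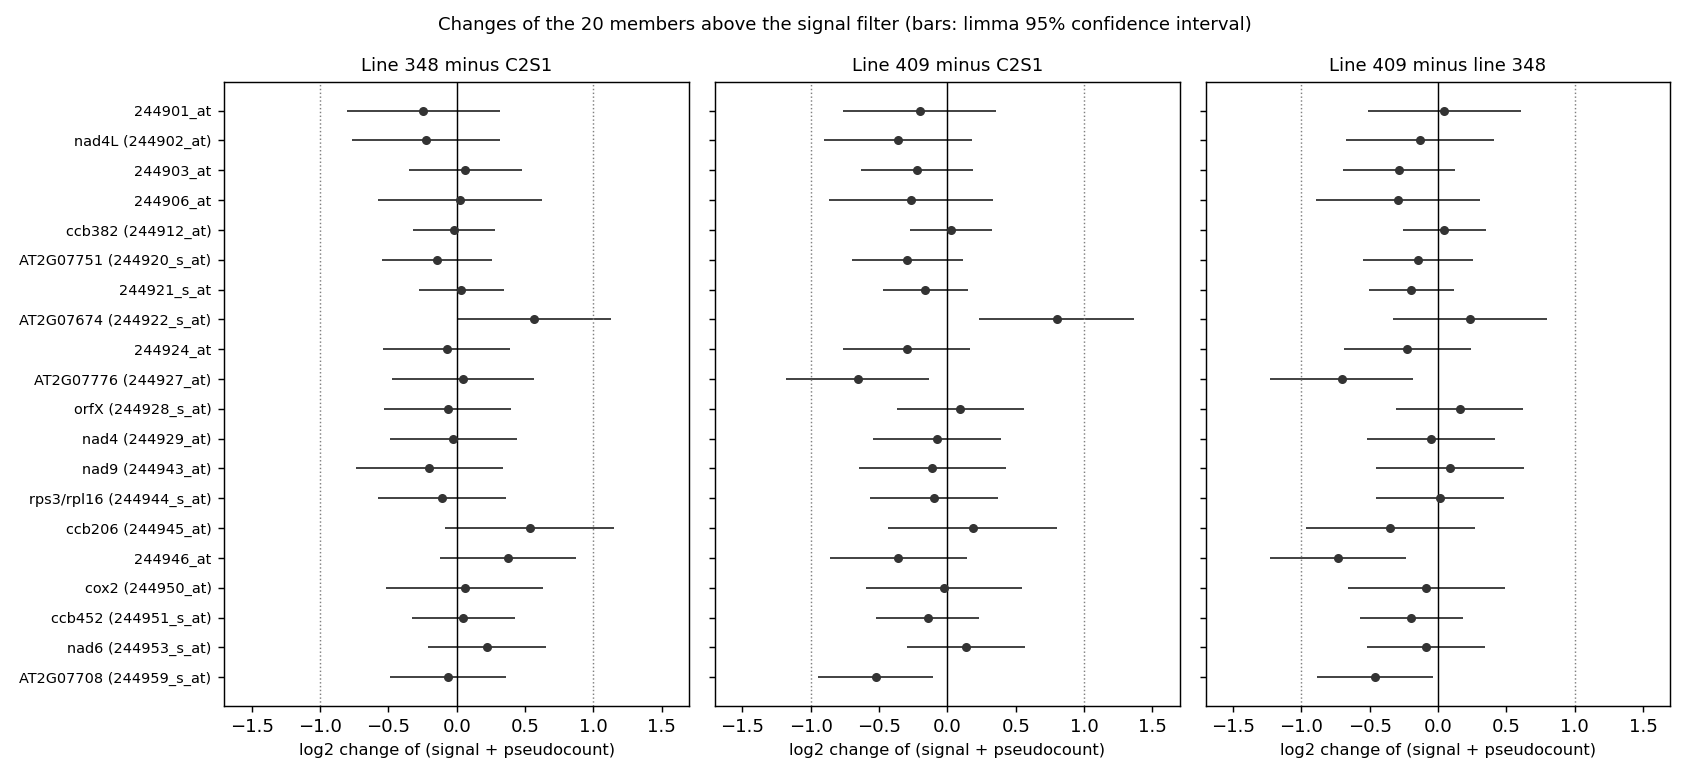
log2 change of signal plus pseudocount for the 20 members above the signal filter in the 3 comparisons, with limma 95% confidence intervals. Dotted lines mark -1 and 1. In each comparison the interval lay between these lines for 18 of the 20 members, and no member was called.

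The precision differed with brightness. On the scale of signal plus pseudocount, the 95% confidence interval stayed between -1 and 1 for 32 of 48 members in line 348 against C2S1 (66.7%), for 36 in line 409 against C2S1 (75%) and for 32 between the mutant lines, beside 81.1%, 78.1% and 79.1% of all probe sets. For dim members such an interval does not bound the change of the signal itself. 244907_at, whose interval ended at 0.996 in line 409 against C2S1, averaged 4.35 ± 2.56 units in line 409 and 1.72 ± 0.97 in C2S1 (SD, n = 3 arrays each). The SD of log2 values within lines had a median of 0.27 over the 20 members above the filter and 0.33 over all 48, against 0.19 over all probe sets above the filter and 0.25 over all probe sets. Mitochondrial genes read outside the block had a median of 0.27 and plastid-encoded genes 0.24.

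Within lines, members above the filter tended to be high or low on the same arrays. In line 409, replicate 3 was the brightest of the 3 arrays for 15 of 20 members (75%, against 38.5% of all probe sets above the filter), and replicate 2 the dimmest for 13 (65%, against 30.6%). In C2S1, replicate 3 was the dimmest for 14 of 20 (70%, against 37.8%) and the brightest for none. In line 348, replicate 3 was the dimmest for 13 of 20 (65%, against 35.2%) and replicate 2 the brightest for 11 (55%, against 31.1%). The same arrays were the dimmest of their lines for most of the 77 plastid-encoded probe sets. This held for 94.8% on C2S1 replicate 3, 76.6% on line 409 replicate 2 and 74.0% on line 348 replicate 3. Their brightest array in line 409 was mostly replicate 1 (70.1%), not replicate 3. The members share arrays and, in part, transcripts, so these counts are a description of the 9 arrays.

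The summed signal of the 48 members, which the brightest members dominate, was 2213 to 2607 in line 348 (median 2410) and 1928 to 2979 in line 409 (median 2165), against 2156 to 2690 in C2S1 (median 2565). The range of line 409 held that of both other lines. The median deviation of the 20 members from their average over all arrays was -0.26 log2 units on line 409 replicate 2 and -0.18 on replicate 1, but 0.13 on replicate 3. On C2S1 replicate 3 it was -0.11, and on C2S1 replicates 1 and 2 it was 0.11 and 0.13. It was 0.11, 0.17 and -0.08 on the line 348 arrays, while all probe sets above the filter stayed between -0.01 and 0.02 on every array.

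Other organelle probe sets were set beside the block on the same arrays. The 77 plastid-encoded probe sets also had low medians on C2S1 replicate 3 (-0.24), line 409 replicate 2 (-0.21) and line 348 replicate 3 (-0.10), but on line 409 replicate 1 they stood at 0.13, where the mitochondrial members stood at -0.18. The 22 probe sets of mitochondrial genes outside the block, taken without the filter, ranged from -0.07 on line 409 replicate 2 to 0.15 on line 409 replicate 3. All 48 members, also without the filter, ranged from -0.15 on line 409 replicate 2 to 0.11 on C2S1 replicate 2, with 0.09 on line 409 replicate 3. The 3'/5' signal ratio of ubiquitin, a sign of RNA integrity and labelling, was 2.17 on line 409 replicate 3 and 1.37 to 1.72 on the other arrays. That of GAPDH was 1.87 on line 409 replicate 3, below the 1.93 and 1.97 of C2S1 replicates 2 and 3, and 1.58 to 1.79 on the other arrays. That of actin was 10.7 on line 409 replicate 3, 8.05 on replicate 1 and 6.08 on replicate 2, against 8.97 to 12.0 in C2S1 and 6.38 to 11.3 in line 348. The part of these ratios in the array pattern was not tested.

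**Figure D4:**
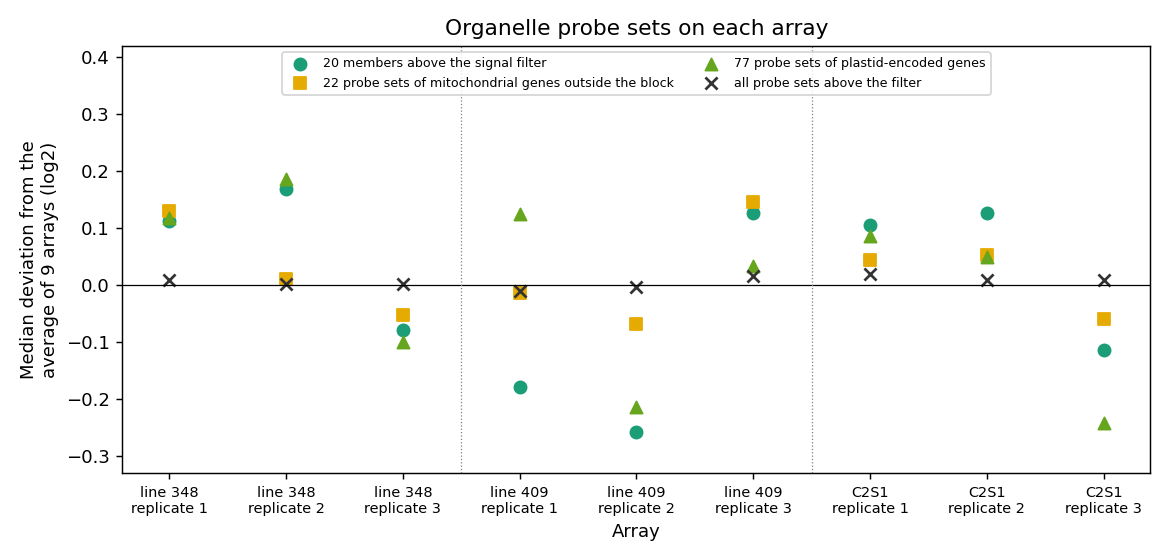
Median deviation from the average of the 9 arrays (log2 units) on each array, for the 20 members above the filter, mitochondrial genes outside the block, plastid-encoded genes and all probe sets above the filter. The mitochondrial genes outside the block were taken without the filter. The members sit at -0.26 on line 409 replicate 2 and at 0.13 on line 409 replicate 3, while all probe sets stay near 0.

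Leaving out 1 array of line 409 changed the sign for nad4, rps3/rpl16 and ccb382, though not for every bright member. For nad4 in line 409 against C2S1, the log2 change was -0.36 without line 409 replicate 3 (limma unadjusted p = 0.0356, adjusted p = 0.426) and 0.13 without line 409 replicate 2. Its adjusted p ranged from 0.426 to 0.999 over all alternatives. For rps3 and rpl16 it was -0.36 and 0.12 in the same fits, and for ccb382 -0.14 and 0.12. AT2G07708 and AT2G07751, also bright, stayed below 0 in line 409 against C2S1 under all alternatives. Their log2 changes ranged from -0.69 to -0.30 and from -0.52 to -0.10. None of these members was called.

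Mitochondrial genes whose probe sets lie outside the block were read on the same arrays. Of 22 such probe sets, 14 passed the filter and 0 were called in limma in any comparison, with 0, 1 and 4 having an unadjusted p under 0.05 in line 348 against C2S1, line 409 against C2S1 and line 409 against line 348. These were 0%, 4.55% and 18.2% of the 22, beside 5.07%, 10.1% and 7.1% of all probe sets. Log2 changes in line 409 against C2S1 were above 0 for 8 and below for 14 (median -0.04), beside 53.2% of all probe sets above 0. Groups did not overlap for 3 of the 22 that were higher and 2 that were lower, beside 8.55% and 7.36% of all probe sets. Probe set 263509_s_at, which reads cox3 of complex IV and AT2G07687, had a log2 change of 0.14 in line 409 against C2S1. Between line 409 and line 348 it had 0.49, with groups that did not overlap (limma unadjusted p = 0.0345, adjusted p = 0.687). It was the only 1 of the 4 in that comparison that was higher in line 409. The 3 lower were 257327_at and 257331_at, both below the filter, and the cob probe set (-0.56, adjusted p = 0.687). A probe set annotated with nad1, 257321_at, had 29.5, 39.7 and 42.7 in line 409, against 25.9, 26.0 and 24.8 in C2S1. All its line 409 arrays lay above all C2S1 arrays, with a log2 change of 0.45, SE 0.217 and limma adjusted p = 0.515. The probe sets of cob, cox1 and atp9 lay below 0 in this comparison. Probe set 266045_s_at, which reads cob, the cytochrome b of complex III, and AT2G07727, had 84.4, 105 and 55.1 in line 348 and 52.1, 41.4 and 65.2 in line 409, against 73.4, 86.4 and 65.7 in C2S1. All line 409 arrays lay below all C2S1 arrays, with a log2 change of -0.48, SE 0.226 and limma adjusted p = 0.507. cox1 (257333_at), a core subunit of complex IV, averaged 134 ± 15.7 in line 348, 109 ± 17.5 in line 409 and 137 ± 30.7 in C2S1 (SD, n = 3 arrays each). Probe set 257339_s_at, which reads atp9 of the ATP synthase and AT2G07671, averaged 219 ± 1.93, 194 ± 28.3 and 229 ± 6.27 in the same order of lines, with a log2 change of -0.24 in line 409 and limma adjusted p = 0.474.

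Nuclear genes of the same complexes, of alternative electron routes, of mitochondrial gene expression and of mitochondrial stress were read from 8 lists with 77 loci, of which 33 genes had a probe set of their own (34 probe sets). In limma 0 were called in each comparison. At an unadjusted p under 0.05, 6 were higher and 1 lower in line 348 against C2S1, 4 higher and 0 lower in line 409 against C2S1, and 1 higher and 6 lower in line 409 against line 348. These were 20.6%, 11.8% and 20.6% of the 34, beside 5.07%, 10.1% and 7.1% of all probe sets. Log2 changes were above 0 for 27, 18 and 13 of the 34 in these comparisons (79.4%, 52.9% and 38.2%), beside 50.3%, 53.2% and 52.7% of all. The stress genes UPOX and HSP23.5 are among the 6 higher in line 348, and UPOX among the 6 lower in line 409 against line 348. COX5B-1, a nuclear subunit of complex IV, had 338, 343 and 361 in line 348 and 424, 442 and 449 in line 409, against 308, 264 and 319 in C2S1. Its groups did not overlap in any of the 3 comparisons, with a log2 change of 0.56 in line 409 against C2S1 (SE 0.093, limma adjusted p = 0.122) and of 0.33 between line 409 and line 348 (adjusted p = 0.557). The other measured nuclear genes of complex IV did not rise as far in line 409 against C2S1. COX5B-2 had 0.10, COX6A -0.02, COX5C -0.04 and COX11 -0.14. Among the mitochondrial genes of this complex, cox2 had -0.02 in line 409 against C2S1 and -0.08 between the mutant lines (SE 0.262 each). In the same comparisons the cox3 probe set had 0.14 and 0.49 and cox1 -0.31 and -0.29.

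Of the other nuclear subunits none was called. CYTC-2, a cytochrome c, averaged 275 ± 51.3 in line 348, 215 ± 36.7 in line 409 and 217 ± 32.0 in C2S1 (SD, n = 3 arrays each), with a log2 change of 0.33 in line 348 and limma adjusted p = 0.971. ATPDELTA, a subunit of the mitochondrial ATP synthase, averaged 762 ± 67.4 in line 348, 822 ± 116 in line 409 and 671 ± 67.7 in C2S1, with 0.29 in line 409 and adjusted p = 0.469. ATPEPSILON, the other measured gene of the ATP synthase list, had 0.22 in line 348 and -0.08 in line 409 against C2S1. Between line 409 and line 348 ATPEPSILON had -0.30 (limma unadjusted p = 0.0268, adjusted p = 0.686). SDH2-2, an iron-sulfur subunit of complex II, had log2 changes of 0.04 in line 348 and 0.17 in line 409. PSST of complex I had 0.12 and 0.20, and MPPBETA, a processing peptidase subunit bound to complex III, 0.07 and -0.14 in the same comparisons. NMAT4, a nuclear-encoded maturase for mitochondrial introns, was dim like matR and averaged 4.74 ± 3.36 in line 348, 7.94 ± 1.42 in line 409 and 11.8 ± 2.99 in C2S1, with a log2 change of -0.85 in line 348 and limma adjusted p = 0.943.

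NDB2, an external NAD(P)H dehydrogenase that bypasses complex I, had 121, 104 and 115 in line 348 and 75.4, 96.1 and 80.3 in line 409, against 71.4, 76.9 and 94.8 in C2S1. All line 348 arrays lay above those of both other lines, with a log2 change of 0.47 and limma adjusted p = 0.810. FRO1, a nuclear subunit of complex I, averaged 485 ± 20.5 in line 348, 514 ± 51.9 in line 409 and 415 ± 15.2 in C2S1 (SD, n = 3 arrays each), with log2 changes of 0.22 and 0.30 and limma adjusted p = 0.968 and 0.331. RPOTMP, a phage-type RNA polymerase that serves both organelles, was dim and averaged 17.9 ± 3.10 in line 348, 14.8 ± 6.70 in line 409 and 19.5 ± 5.19 in C2S1. AOX1A, MSH1 and RPOTM were on the lists and are not analysed here.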

How the data were processed

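RNA of whole plants was put on Affymetrix ATH1 arrays after biotin labelling, with 3 arrays per line. The authors deposited signal intensity on a linear scale. The submitters' processing notes name MAS5 and GCOS without a version. Their global scaling was kept. The 64 Affymetrix control probe sets were left out of the tests. Gene names came from the given probe annotation, and loci from the given RefSeq gene table (TAIR10.1), used without coordinates.

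Each signal plus 4.98 (the arrays' median 20th percentile) was taken to log2. All 22746 probe sets of the 9 arrays entered 1 linear model in R 4.3.3 with limma 3.58.1, with moderated variances and an intensity trend (6 residual degrees of freedom), and p-values were adjusted over all of them by Benjamini-Hochberg. A filter on low signal, above the 40th percentile on at least 3 arrays, was used for description and as an alternative, and 14199 probe sets passed it. The code was tested on simulated data. Members and lists were chosen with earlier results of these data known. Named members were those called, the 8 with the lowest p of a comparison, the brightest and dimmest of a functional group, and nad4, nad4L and ccb382, and of each nuclear list up to 4 genes with the lowest p, from which the text takes some. The choice of other members and of cox1, cox3, cob, atp9 and nad1 probe set 257321_at followed a look at their values.

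The line 348 titles number the arrays 1, 1 and 3, so replicates are numbered by sample order. The labels give no batch. Alternatives covered the pseudocount, the filter, quantile normalization, median centring, the intensity trend, array weights, the arrays in the fit, a block and each array left out.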

Additional observations from a re-analysis of the deposited data

How the results depend on the processing

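In limma 0 members were called in each comparison under each alternative run, including each array left out in turn. The median log2 change of the members in line 409 against C2S1 was -0.15 over the 20 members above the signal filter, where fewer members entered. With 1 array left out, the median over all 48 members ranged from -0.12 to 0.03 in line 409 against C2S1, from -0.04 to 0.03 in line 348 against C2S1 and from -0.16 to 0.02 between the mutant lines. The few calls among all probe sets were less stable, and the cause was not tested. In line 348 against C2S1 there were 2 in the fit reported, 0 without the intensity trend and with only the 6 arrays compared, 4 with array weights, and 0 to 4 with 1 array left out. In line 409 against C2S1 there were 8, with 3 without the trend, 0 with only the 6 arrays, and 0 to 24 with 1 array left out, the most without C2S1 replicate 3. Between line 409 and line 348 there was 1, with 2 under the filter, 0 with quantile normalization, without the trend and with only the 6 arrays, and 0 to 1 with 1 array left out. With the number in the titles as a replicate block, the calls were 1, 0 and 0 in these comparisons. The deviations of same-numbered arrays of line 409 and C2S1 correlated at Pearson's r = 0.19, -0.04 and 0.10. For differently numbered arrays of these lines r ran from -0.18 to 0.09. These values do not settle whether the numbers pair the samples, and the fit reported did not pair them. Low signal limits the 28 members below the filter, and 3 arrays per line limit the rest.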

Other observations

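nad1 is a complex I gene whose coding sequence is assembled from separately transcribed pieces in plant mitochondria. The annotation named it for 9 probe sets outside the block, of which 4 passed the signal filter. Whether each of these probe sets reads the nad1 transcript was not tested. Their mean signals were 5.60 to 46.6 units, and they disagreed in sign. In line 409 against C2S1, 4 had log2 changes above 0 and 5 below, from -0.43 to 0.65, and the lowest limma adjusted p was 0.515. Both ends of this range came from probe sets below the filter, and the 4 above it ran from -0.37 to 0.45. Of the others, 265229_s_at is also annotated with AT2G07701 and 266013_s_at with AT2G07702. In line 348 against C2S1, 6 were above 0 and 3 below, from -0.16 to 0.47. nad5, assembled in the same way, had 2 probe sets, at 0.40 (below the filter) and -0.06 on the log2 scale for line 409 against C2S1. Probe sets named with the same mitochondrial gene thus differed in sign, and none was called.

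The mitochondrial stress list had 3 measured genes. UPOX (263515_at), a small protein induced by oxidative stress, had 45.7, 29.7 and 63.7 in line 348 and 17.0, 27.1 and 30.0 in line 409, against 26.8, 20.7 and 28.6 in C2S1. All line 348 arrays lay above all C2S1 arrays, with a log2 change of 0.71, SE 0.279 and limma adjusted p = 0.962. HSP23.5, a small heat shock protein of mitochondria, averaged 39.6 ± 15.6 in line 348, 23.8 ± 10.3 in line 409 and 17.8 ± 8.05 in C2S1 (SD, n = 3 arrays each), with a log2 change of 0.96 in line 348 and limma adjusted p = 0.943. AT12CYS-2 had a log2 change of 0.59 in line 348. For HSP23.5 and AT12CYS-2 the arrays of line 348 overlapped those of C2S1. Within line 348, replicate 2 was the lowest array for UPOX, HSP23.5 and AT12CYS-2. None of the 3 was called in any comparison.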
